A study of Rattus norvegicus and Ovis aries with 113 samples.

Results

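The ovaries of 14 female rats were compared with the brains of the same animals. The members were chosen by label: all 14 ovary libraries, each paired with the brain library that carries the same animal number (1, 2 and 18 to 29). They make up 28 of the 113 samples of the series, 58 of which come from rats. The series looks for genes that link the nervous and the reproductive systems across mammals, and here the 2 organs of one individual can be set side by side. All animals were female Sprague Dawley rats, an outbred laboratory strain, killed just before whole brains and ovaries were collected. No treatment is recorded, and the labels give neither the age nor the stage of the oestrous cycle of the females. Both organs were handled whole, so each library is a mixture of all cell types of the organ, and fewer cells of a type cannot be told apart from less RNA per cell. RNA was extracted with one kit, and polyadenylated RNA was read with a stranded library kit and paired 150-base reads.

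The ovary makes germ cells and steroid hormones. Granulosa cells surround each oocyte, theca cells supply them with androgen that they convert to oestrogen, and after ovulation the follicle becomes a corpus luteum that secretes progesterone. The pituitary hormones FSH and LH drive these steps, under the control of the hypothalamus, which reads the ovarian steroids in return. The brain, apart from its neurons, holds astrocytes, myelinating oligodendrocytes and microglia, and shares with the ovary blood vessels, immune cells and many signalling pathways.

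Ovary libraries held 45.2 to 53.4 M counts (M, 1000000) that entered the analysis, and brain libraries 10.9 to 59.8 M. Before that, 5 ribosomal RNA entries had been left out, which took 8.20 to 14.6% of an ovary library and 3.16 to 90.8% of a brain library. The brain of animal 1 had the largest such share and the smallest remaining depth, so each list below was also counted without that animal. Other ribosomal RNA entries stayed in the totals. In that brain the 10 highest entries, led by the ribosomal RNA entry LOC120102105, still took 45.8% of the remaining counts. Levels are given as CPM, counts per 1000000 counts of a library, scaled with TMM factors, and a gene was called different when its adjusted p in edgeR was below 0.05 and its log2 difference, ovary over brain, was at least 1 in size. The labels matched the markers. Star ranged from 568 to 2649 CPM in the 14 ovaries and from 0.829 to 1.225 CPM in the 14 brains, and Hsd3b1, at 4294 to 9627 CPM in ovaries, did not pass 0.0744 CPM in any brain. In the other direction the 12 pan-neuronal genes summed to 5143 to 6568 CPM in brains and to 113 to 194 CPM in ovaries. No library went against its label. Of the 469 genes in the lists or named here, 157 overlap another annotated gene, among them Scarb1, Cyp19a1, Fst, Snap25, Mbp, Ntrk2, Zic1, H19 and Igf2, and the strand setting of the counting is not given in the sources used here, so reads of such pairs may not have been told apart.

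Of 21029 genes tested, 57.3% were called different, 27.0% higher and 30.3% lower in the ovary, around a median log2 difference of -0.02. A called difference is therefore the usual case for a gene in this comparison, and the counts below are to be read against these shares. A 32-fold difference was rarer: 3.18% of genes tested were called and at least 32-fold higher in the ovary, and 7.71% were called and at least 32-fold lower. Genes that were called and whose 14 ovaries did not overlap the 14 brains made up 21.4% of genes tested on the ovary side and 24.2% on the brain side.

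**Figure D1:**
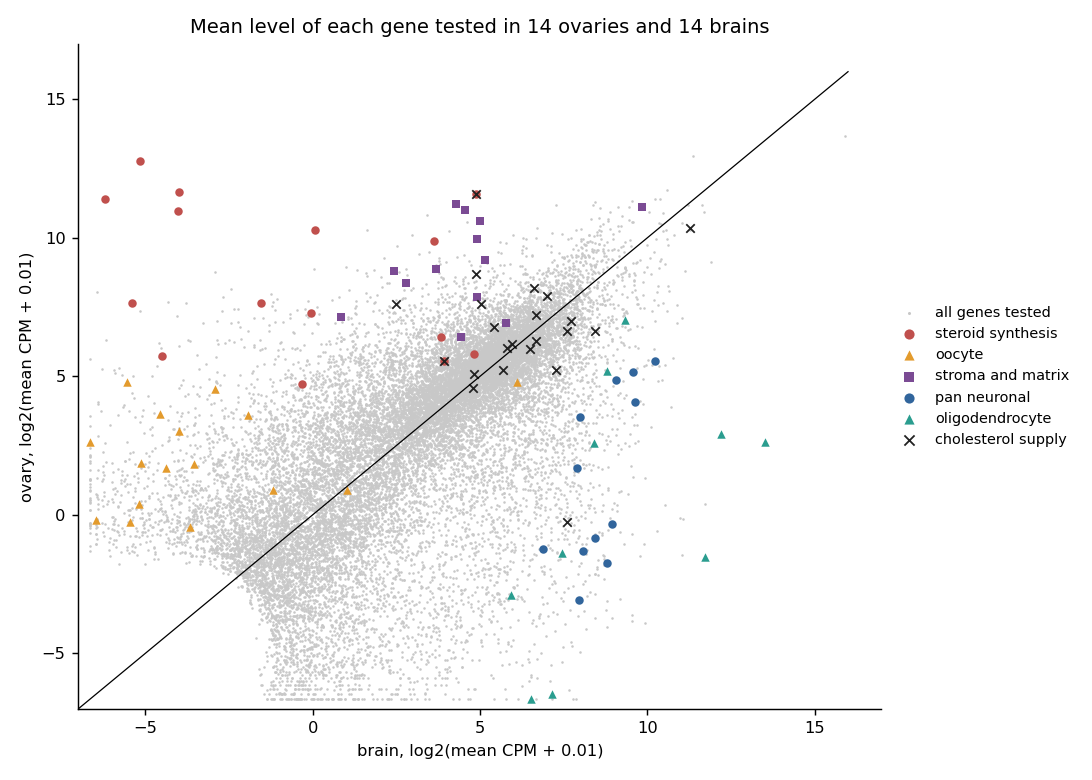
Mean level of each gene tested in 14 brains (horizontal) and 14 ovaries (vertical), both as log2 of the mean CPM + 0.01; each grey point is a gene, coloured marks are members of 6 gene lists, and the line marks equal levels. Most steroid synthesis and oocyte genes lie far above the line, neuronal and oligodendrocyte genes far below it, and cholesterol supply genes on both sides of it.

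Of the 15 genes of steroid synthesis, 14 were higher in the ovary, against 27.0% of all genes tested, 0 were lower, and 11 were at least 32-fold higher, against 3.18%. The median log2 difference of the list was 9.18, and 13 members were called higher with no overlap between the organs, against 21.4% of all genes. The list follows cholesterol from its uptake through the mitochondrial transporter STAR and the side-chain cleavage enzyme CYP11A1 to progesterone, androgen and oestrogen. Its summed level ran from 13921 CPM in the ovary of animal 21 to 32186 CPM in that of animal 2, a 2.31-fold range, against 89.9 to 117 CPM in the brains.

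The 3 genes for 3-beta-hydroxysteroid dehydrogenase, which turns pregnenolone into progesterone, lie next to each other on chromosome 2. With Hao2, a peroxisomal hydroxyacid oxidase, they span 137 kb (chr2:188784614-188921567, GRCr8), and the annotation lists no other gene between them. All 4 were among the 8 largest differences on the ovary side, named by rule among genes with at least 10 CPM. The transcription start windows of Hsd3b1 and Hsd3b3 are printed here because they are nearly the same sequence, and that of Cyp11a1 because it holds a motif of interest. Each runs from 250 bases before to 50 bases after the annotated start, 5′ to 3′ on the gene's strand (RefSeq, GRCr8; Cyp11a1 at chr8:67318415-67318714, plus strand; Hsd3b1 at chr2:188864645-188864944 and Hsd3b3 at chr2:188832685-188832984, both minus strand). Capitals mark AGGTCA in Cyp11a1 and the base that differs in the other pair.
Cyp11a1: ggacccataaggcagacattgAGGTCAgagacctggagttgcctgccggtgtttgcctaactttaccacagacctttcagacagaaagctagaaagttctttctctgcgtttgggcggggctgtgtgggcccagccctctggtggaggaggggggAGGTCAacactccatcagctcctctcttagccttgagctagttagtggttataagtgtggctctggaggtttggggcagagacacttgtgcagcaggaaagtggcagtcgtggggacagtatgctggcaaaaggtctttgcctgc
Hsd3b1: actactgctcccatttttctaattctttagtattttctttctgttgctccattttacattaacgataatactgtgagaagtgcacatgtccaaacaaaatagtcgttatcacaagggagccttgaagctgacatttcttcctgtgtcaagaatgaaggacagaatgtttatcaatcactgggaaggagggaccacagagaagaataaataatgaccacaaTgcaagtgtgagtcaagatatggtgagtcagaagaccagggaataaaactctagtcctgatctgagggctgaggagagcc
Hsd3b3: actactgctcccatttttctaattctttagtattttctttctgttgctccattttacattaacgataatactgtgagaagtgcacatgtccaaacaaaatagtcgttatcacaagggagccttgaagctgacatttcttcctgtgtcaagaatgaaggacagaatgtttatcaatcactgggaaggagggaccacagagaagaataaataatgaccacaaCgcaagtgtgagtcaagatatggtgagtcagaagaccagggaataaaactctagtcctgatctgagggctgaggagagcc

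Hsd3b1 and Hsd3b3 were identical at 299 of 300 bases of this window, with the substitution T221C counted from the window's 5′ end, while Hsd3b1 and Hsd3b2 were identical at 67 of 300. The 3 Hsd3b genes are paralogs that can share reads, so the split of counts among them is uncertain. Hsd3b1 and Hsd3b3 were both lowest in the ovary of animal 21 and highest in that of animal 24. The motif AAGGTCA, a motif known to be bound by NR5A1, was searched on both strands of the 9 steroid synthesis genes that matched the promoter table, and stood in 0 of 9 windows and in 4.61% of all 33469 windows of this length. Its 6-base core AGGTCA, a search added after the values were seen and contained in every AAGGTCA, stood in the windows of Cyp11a1 and Fdx1, 2 of 9, and in 16.2% of all. The 2 copies in Cyp11a1 lie at bases 22 to 27 and 156 to 161 of the window, on the forward strand. These matches describe letters and not bound sites.

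Cyp11a1 (chr8:67318665-67330196) ranged from 2111 to 6437 CPM in ovaries around a median of 3118, and from 0 to 0.301 CPM in brains around 0.0224. Every ovary lay far above every brain, a log2 difference of 15.70 ± 0.41 (approximate SE, n = 14 pairs, adjusted p = 3.8e-16, edgeR). For Star, with medians of 1172 and 1.03 CPM, the log2 difference was 10.16 ± 0.21, and for the ferredoxin Fdx1, which passes electrons to CYP11A1, it was 6.27 ± 0.11 (adjusted p = 1.64e-17 and 3.41e-18). Hsd3b3 had 2 counts in the 14 brains together, and its ratio of ovary to brain lay between 229000 and 6820000 by the 95% Poisson interval of those counts, which covers counting error only. Akr1c3, listed also as Akr1c18, encodes the enzyme that inactivates progesterone in the rat corpus luteum. It spread from 440 to 5641 CPM across ovaries, highest in animal 24, and did not pass 0.159 CPM in a brain.

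The later steps of the pathway had wider ranges across ovaries than the first. Cyp17a1 (chr1:255476861-255484547), which makes androgens, was at 0.523, 0.517, 1.91 and 1.79 CPM in the ovaries of animals 21, 22, 23 and 25 and at 18.5 to 164 CPM in the other 10. Even so, each of these 4 ovaries lay above all brains, where the highest value was 0.117 CPM. The LH receptor gene Lhcgr (chr6:11415361-11480834) was lowest in the same 4 ovaries, at 39.3, 118, 127 and 72.3 CPM, against 281 to 1149 CPM in the others. Cyp19a1, the aromatase that makes oestrogen, was at 3.45 and 2.62 CPM in animals 21 and 22 and reached 97.2 CPM in animal 2, while its brain values were 0.449 to 1.25 CPM. Hsd17b1, which completes oestradiol, ran from 32.6 to 368 CPM in ovaries and stayed at or below 2.02 CPM in brains. Srd5a1, a 5-alpha reductase that brain cells also use to make neurosteroids, was the member not called: its ovaries, 10.1 to 143 CPM, enclosed its brains, 22.5 to 34.9 CPM (log2 difference 0.44 ± 0.37, adjusted p = 0.263, edgeR).

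**Figure D2:**
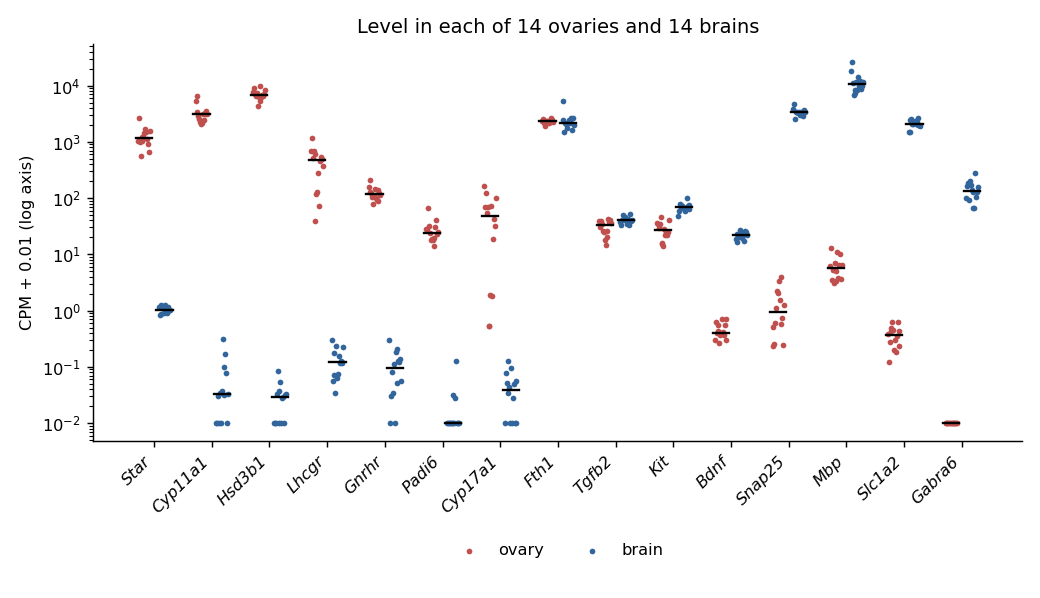
Level of 15 genes in each of 14 ovaries (red) and 14 brains (blue), as CPM + 0.01 on a log axis; each point is a library and each black bar the median of its group. Star, Cyp11a1 and Hsd3b1 separate the organs completely, Fth1 overlaps, and Cyp17a1 falls into 4 low and 10 high ovaries.

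The theca and luteal list, 5 of whose 11 genes are also in the steroid list, had 10 members higher in the ovary and 0 lower, with a median log2 difference of 10.07. Ptgfr, the prostaglandin F receptor through which luteal regression is triggered, was at 124 to 1252 CPM in ovaries and at 0.839 to 3.53 CPM in brains. Prlr, the prolactin receptor, was at 27.0 to 144 CPM against 0.276 to 2.47 CPM. Insl3, a theca peptide, was low even in ovaries, at 0.749 to 5.58 CPM, yet above all brains. Parm1 was not called, with 30.4 to 122.5 CPM in ovaries and 34.2 to 54.0 CPM in brains.

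Of 12 granulosa genes, 10 were higher in the ovary and 0 lower, with a median log2 difference of 6.63. The FSH receptor Fshr was found at 2.17 to 22.4 CPM in ovaries and at no more than 0.0496 CPM in brains. Foxl2, the transcription factor that maintains granulosa identity, was at 79.8 to 239 CPM against 0.839 to 1.77 CPM, so that the lowest ovary was far above the highest brain. The 2 members not called have known roles in brain as well. Gja1, a gap junction protein of both granulosa cells and astrocytes, was higher in the ovary of all 14 animals but overlapped between organs, and its log2 difference of 0.98 ± 0.12 was just short of the limit of 1. Under upper quartile scaling, or without the animal as a block, it was called, which makes 11 of 12. Kitlg, the ligand of KIT, was at 38.7 to 63.2 CPM in ovaries and 35.5 to 70.2 CPM in brains, with a log2 difference of -0.15 ± 0.08 (adjusted p = 0.101, edgeR).

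The ligands of the TGF-beta family, which carry messages among oocyte, granulosa and theca cells, included 10 of 13 members higher in the ovary and 0 lower, with a median log2 difference of 3.23. The inhibin alpha subunit Inha, whose product damps FSH release, was at 853 to 3364 CPM in ovaries and 6.31 to 14.9 CPM in brains. Its partners Inhba and Inhbb, which pair with INHA to form inhibins or with each other to form activins, had log2 differences of 5.90 ± 0.25 and 5.87 ± 0.26. Amh, the anti-Müllerian hormone of small growing follicles, was at 30.5 to 222 CPM in ovaries and at most 0.644 CPM in brains. Inha, Inhbb, Amh and Fshr were all highest in the ovary of animal 28. The 3 ligands not called were Bmp4 (-0.24 ± 0.11), Bmp6 (0.09 ± 0.09) and Tgfb2 (-0.48 ± 0.14), and the organs overlapped for each of them.

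Among 11 receptors of the same pathway, 5 were higher and 1 lower in the ovary, with a median log2 difference of 0.83, a called share near the 57.3% of all genes tested. Tgfbr2 (3.24 ± 0.08), the AMH receptor Amhr2 (3.20 ± 0.15) and the co-receptor Tgfbr3 (3.04 ± 0.09) differed most. Acvr1b, an activin type I receptor, was the lower one, at 20.1 to 32.9 CPM in ovaries and 66.5 to 126.5 CPM in brains. Acvr1 was close to equal, with medians of 27.5 and 27.6 CPM. Among 14 inhibitors and SMAD genes, 6 were higher and 2 lower, again near that share. The activin-binding protein follistatin, Fst, was at 113.5 to 246 CPM in ovaries and 1.54 to 3.15 CPM in brains, whereas the BMP antagonists Nog (-3.74 ± 0.22) and Chrd (-2.17 ± 0.14) were lower in the ovary. With RLE factors, another way of scaling libraries, with DESeq2 or without animal 1, 5 members were called higher.

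Of 16 oocyte genes, 14 were higher in the ovary and 1 lower, with a median log2 difference of 6.45. Padi6 (chr5:158304118-158320508), an enzyme stored in the egg cytoplasm, ranged from 14.2 to 67.6 CPM in ovaries around 24.4 and did not pass 0.117 CPM in a brain (log2 difference 10.80 ± 0.34, adjusted p = 3.47e-15, edgeR). Ooep, a partner of the same maternal complex, had 0 counts in the 14 brains and was at least 1250-fold higher in the ovary, taking 3 counts over the 14 brains as the floor. The zona pellucida genes Zp1, Zp2 and Zp3, which build the egg coat, had ovary medians of 2.76, 20.1 and 10.9 CPM and brain values of at most 0.0724, 0.265 and 0.117 CPM. Gdf9 and Bmp15, the growth factors that an oocyte sends to its granulosa cells, differed by 5.50 ± 0.21 and 2.06 ± 0.23 on the log2 scale, the latter against brain values of 0.145 to 0.746 CPM. Figla and Nobox, factors of the oocyte programme, stayed below 1.70 CPM in ovaries, and each was above all brains.

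These oocyte genes peaked in the same ovary. Of the 16 members, 14 were highest in animal 18, where the list summed to 296 CPM, against 77.0 CPM in animal 21, the lowest. Kit, the receptor on oocytes for the granulosa ligand KITLG, is also found on brain cells: it was at 14.2 to 45.3 CPM in ovaries and 47.4 to 102 CPM in brains, with no overlap (log2 difference -1.40 ± 0.16). Lhx8, a factor of both oocytes and forebrain cholinergic neurons, was at 1.02 to 4.86 CPM in ovaries and 0.488 to 3.93 CPM in brains and was not called (-0.11 ± 0.31, adjusted p = 0.751, edgeR).

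Genes of ovulation and of the EGF-like signals that trigger it were mixed, with 8 of 11 higher and 2 lower in the ovary. The protease gene Adamts1 (87 to 240.5 CPM in ovaries, 4.68 to 8.53 CPM in brains) and the matrix gene Ptx3 (12.6 to 47.6 against 0.225 to 1.23 CPM) were higher in every ovary than in any brain. Ereg, an EGF-like ligand, had 0 counts in brains and 0.0949 to 2.94 CPM in ovaries, at least 165-fold higher. Ptgs2, the inducible cyclooxygenase, was lower in the ovary of all 14 animals, with medians of 3.23 and 16.7 CPM. So was the progesterone receptor Pgr in 13 of 14, with medians of 2.97 and 6.12 CPM, but that call was lost without the animal as a block.

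The hormone axis that joins brain, pituitary and ovary split by organ. Of its 20 genes, 15 had enough counts to be tested, and of these 8 were higher and 6 lower in the ovary. Gnrhr (chr14:22211666-22229654), the receptor for the hypothalamic hormone GnRH, was at 78.1 to 214 CPM in ovaries around a median of 118 and at 0 to 0.289 CPM in brains around 0.0858. Every ovary lay above every brain, and the log2 difference of 10.39 ± 0.26 (adjusted p = 2.29e-16, edgeR) was the second largest of the list, after 11.52 ± 0.41 for Lhcgr. The oestrogen receptors Esr1 (4.93 ± 0.17) and Esr2 (4.54 ± 0.14) were higher in all 14 ovaries with no overlap. The oxytocin receptor Oxtr varied most, from 1.98 to 118 CPM in ovaries, and was higher than in brain in 12 of 14 animals (2.61 ± 0.48).

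On the brain side stood the kisspeptin receptor Kiss1r, through which GnRH neurons are switched on, at 2.27 to 5.07 CPM in brains and 0.0182 to 0.184 CPM in ovaries. Tacr3, the neurokinin B receptor of the same circuit, had a log2 difference of -6.82 ± 0.43, and its ligand Tac3 of -2.24 ± 0.25. The membrane oestrogen receptor Gper1 (-2.20 ± 0.15) and oxytocin, Oxt (-3.77 ± 0.50), were also lower in the ovary. Kiss1 itself was near its detection limit in both organs, 0.0728 to 0.942 CPM in ovaries and 0.0530 to 0.537 CPM in brains, and was not called (adjusted p = 0.254, edgeR). Gnrh1, Fshb, Lhb, Cga and Prl did not reach the count filter. Gnrh1 had 91 counts in all ovaries and 99 in all brains, and Lhb had 0 in both.

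Cholesterol feeds steroid synthesis in the ovary and membranes and myelin in the brain, and its 22 supply genes showed no common direction: 7 were higher in the ovary, 3 lower and 12 not called, with a median log2 difference of 0.17. The called share was below the 57.3% of all genes tested. Scarb1, the receptor that takes up cholesterol from HDL particles, was at 1671 to 5811 CPM in ovaries and 23.7 to 33.1 CPM in brains (6.61 ± 0.17), and Soat1, which esterifies cholesterol for storage, was at 107 to 311 against 2.02 to 8.90 CPM. In contrast, Cyp46a1, the enzyme by which neurons export cholesterol, was at 129 to 235 CPM in brains and 0.307 to 1.72 CPM in ovaries. Hmgcs1 (-1.83 ± 0.08) and Sc5d (-2.07 ± 0.08), steps of synthesis, were lower in the ovary, whereas Dhcr7, a late step, was higher (3.79 ± 0.09). Without animal 1, or with RLE factors, 5 in place of 3 members were called lower.

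Among transcription factors of the ovary, 9 of 11 were higher and 0 lower, with a median log2 difference of 9.17. Gata4 was at 100 to 230.0 CPM in ovaries and at most 0.0817 CPM in brains (12.88 ± 0.21), and Wt1, a factor of the embryonic gonad, at 48.5 to 89.8 CPM and at most 0.127 CPM. The nuclear receptors Nr5a1 and Nr5a2, which activate steroid enzyme genes, differed by 9.18 ± 0.30 and 10.13 ± 0.29. Emx2 and Lhx9, factors that also pattern the forebrain, were not called (0.55 ± 0.09 and -0.50 ± 0.18). All 15 cell cycle genes were higher in the ovary, with a median of 4.14 and with 13 of the 15 highest in the ovary of animal 28. Cdk1, the kinase of mitotic entry, was at 20.6 to 47.4 CPM in ovaries and 0.443 to 1.88 CPM in brains. Among 17 glutathione enzymes, which neutralise peroxides and foreign compounds, 10 were higher and 0 lower, against 27.0% and 30.3% of all genes tested. Gstm2 (6.25 ± 0.19) and Gstt1 (5.34 ± 0.14) differed most, while Gpx4 was not called (-0.13 ± 0.12).

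**Figure D3:**
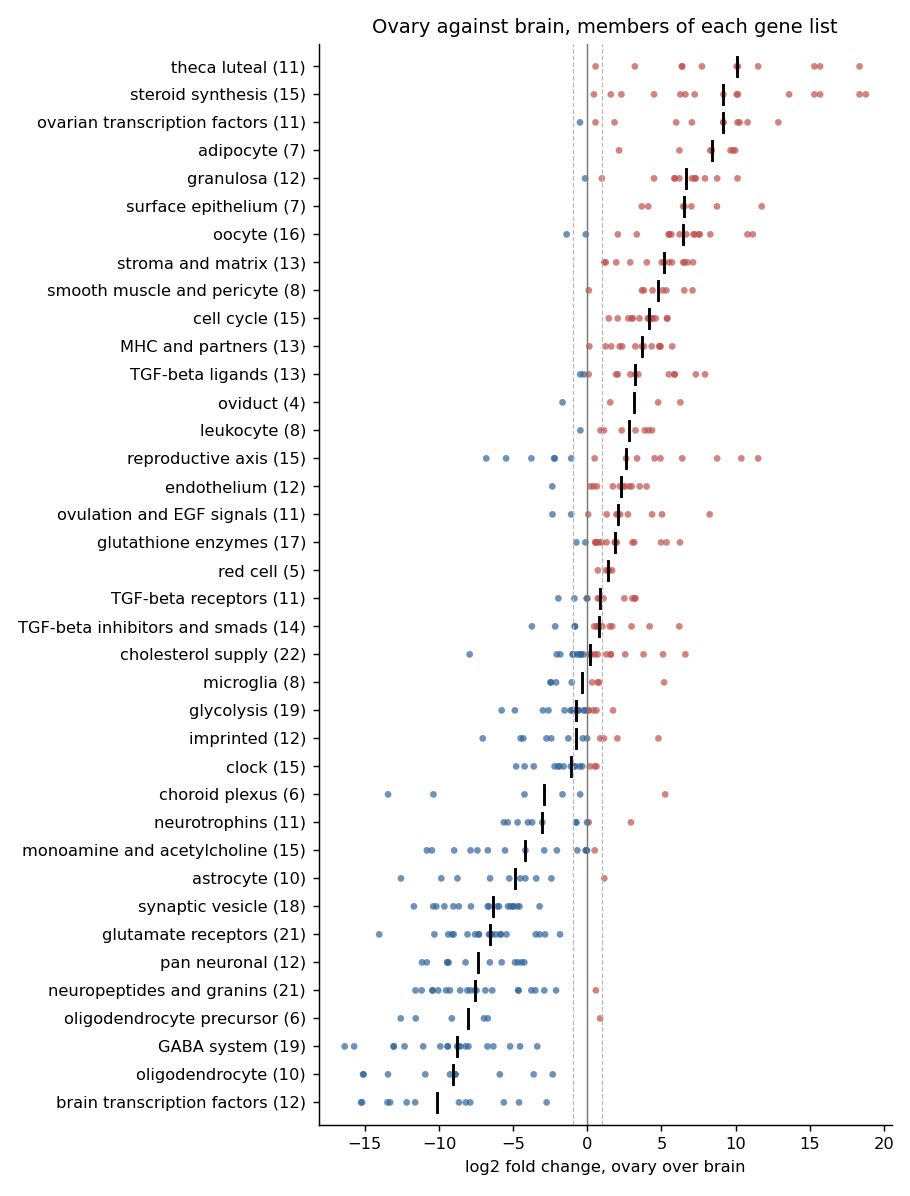
Log2 difference, ovary over brain, of each tested member (points) of 38 gene lists with at least 3 tested genes, with the number tested in brackets and the list median as a black bar; dashed lines mark differences of 1 in size. The medians run from 10.07 for theca and luteal genes to -10.14 for brain transcription factors.

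Structural cells of the ovary gave another set of differences. All 13 stroma and matrix genes were higher, with no overlap between organs: Col3a1, a fibrillar collagen, was at 1261 to 4826 CPM in ovaries and 6.81 to 46.2 CPM in brains. Of 8 smooth muscle and pericyte genes 7 were higher, and 7 of the 8 were highest in the ovary of animal 21, where Actg2, a smooth muscle actin, reached 521 CPM against a median of 85.2 CPM. Rgs5, a pericyte gene, was not called (0.10 ± 0.17). All 7 surface epithelium genes were higher, with Upk3b at 7.29 to 87.5 CPM in ovaries and 5 counts in all brains. Of 12 endothelial genes 8 were higher, such as Flt4 (3.99 ± 0.20), and 10 of 12 were highest in the ovary of animal 2. Prox1, a lymphatic factor that dentate granule neurons also use, was lower (-2.36 ± 0.13). Of 8 leukocyte genes 6 were higher, led by Cd68 (4.36 ± 0.18), and 4 of 5 red cell genes were higher with overlap, Hba-a1 and Hba-a2 being near-identical copies whose split is uncertain.

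Genes of fat cells and of the oviduct, tissues that lie against the ovary, were also counted. All 7 tested fat cell genes were called higher in the ovary, and their list summed to 75.4 CPM in animal 18 and to 2910 CPM in animal 24, a 38.6-fold range. Adipoq, the fat cell hormone adiponectin, ran from 7.84 to 645 CPM in ovaries with a median of 99.3 CPM, and from 0.0704 to 1.34 CPM in brains. Of the 4 oviduct genes tested, 3 were higher and Krt23 was lower. Foxj1, the factor that switches on motile cilia, was at 0.409 and 2.79 CPM in the ovaries of animals 18 and 26 and at 15.7 to 80.6 CPM in the other 12, with brains at 7.80 to 17.5 CPM. Sntn, a protein of the cilium tip, was at 0.0204 and 0.510 CPM in those 2 ovaries and 2.88 to 18.0 CPM elsewhere. Over the same ovaries the sum of the steroid genes ranged 2.31-fold, while single members ranged more, such as Cyp17a1 from 0.517 to 164 CPM. Star and Hsd3b1 were above all brains in each ovary. The source of the fat cell and oviduct reads, and their part in any difference between ovary and brain, was not tested.

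**Figure D4:**
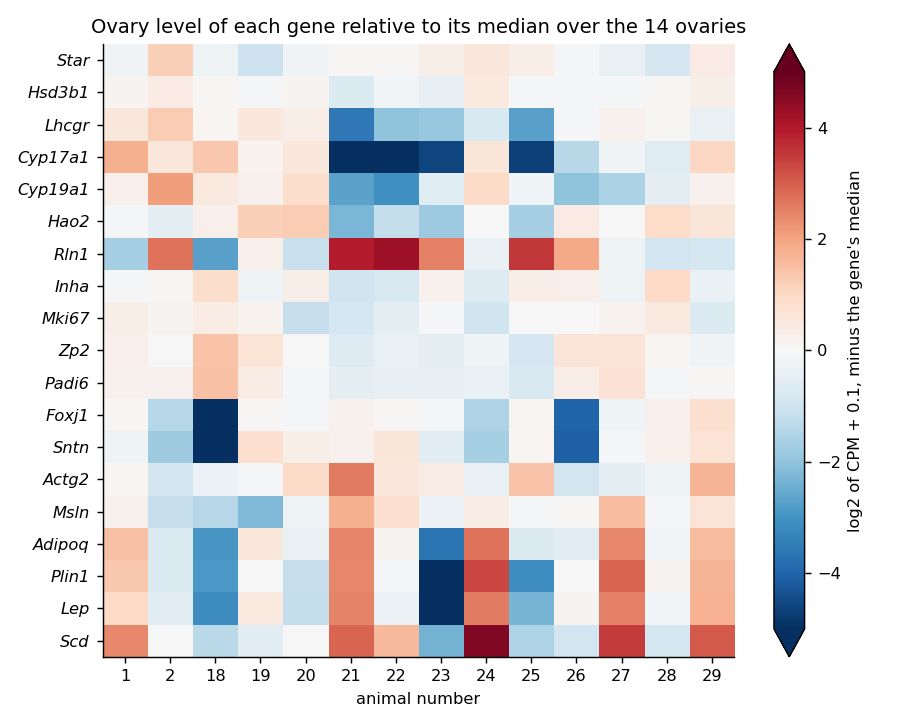
Ovary level of 19 genes in each animal, as log2 of CPM + 0.1 minus the median of that gene over the 14 ovaries; red is above and blue below the median, and colours are cut at 5 in either direction. Animals 21, 22, 23 and 25 are low in Cyp17a1 and Lhcgr, animals 18 and 26 in Foxj1 and Sntn, and the fat cell genes Adipoq, Plin1 and Lep move together.

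On the brain side the neuronal lists went one way. All 12 pan-neuronal genes (median log2 difference -7.39), all 18 synaptic vesicle genes (-6.35), all 21 glutamate receptor genes (-6.56) and all 19 genes of the GABA system (-8.79) were lower in the ovary, against 30.3% of all genes tested. Snap25 (chr3:144494579-144576449), a protein that fuses synaptic vesicles with the membrane, was at 2595 to 4678 CPM in brains around a median of 3386 and at 0.228 to 3.90 CPM in ovaries around 0.924. Ovary and brain did not overlap (-11.70 ± 0.47, adjusted p = 9.31e-14, edgeR). Vamp2, a vesicle protein that many secreting cells use, differed least of its list, with ovaries at 110 to 176 CPM (-3.22 ± 0.08). Gria3, an AMPA receptor subunit, differed least among the glutamate receptors, with 27.5 to 93.2 CPM in ovaries (-1.84 ± 0.12).

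Some brain genes had no count in any ovary. Gabra6, a GABA-A receptor subunit of cerebellar granule cells, had 0 counts in the 14 ovaries and 66.1 to 275 CPM in brains, and was at least 34000-fold lower in the ovary, taking 3 counts over the 14 ovaries as the floor. Other genes with 0 ovary counts among the 8 largest brain differences were Ermn, a myelin protein (at least 22000-fold), the granule neuron factor Neurod1 (at least 24700-fold) and the potassium channel Kcnk9 (at least 13200-fold). Not every GABA gene was silent in the ovary. Gad1, which makes GABA, was at 0.143 to 20.4 CPM there, lowest in animals 18 and 26, and Gabbr1, a GABA-B receptor subunit, at 31.2 to 57.8 CPM against 749 to 1149 CPM in brains.

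Peptide and amine signals were less uniform. Of 21 neuropeptide and granin genes 20 were lower in the ovary, with cholecystokinin, Cck, at 194 to 392 CPM in brains and at most 0.315 CPM in ovaries. Penk, proenkephalin, remained at 5.43 to 77.6 CPM in ovaries, highest in animal 21 (-3.51 ± 0.35). Gal, galanin, was not called, at 3.43 to 11.1 CPM in ovaries and 2.74 to 8.91 CPM in brains. Of 15 monoamine and acetylcholine genes 10 were lower: Chat, which makes acetylcholine, had 1 count in all ovaries and 2.97 to 10.1 CPM in brains. The transporters for serotonin, Slc6a4, and noradrenaline, Slc6a2, were not called, with log2 differences of -0.02 ± 0.30 and -0.08 ± 0.33 and ovary medians of 3.87 and 2.28 CPM.

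All 10 oligodendrocyte genes were lower, with a median of -9.09. Mbp, myelin basic protein, was at 6713 to 26200 CPM in brains, highest in animal 2, and at 3.05 to 12.9 CPM in ovaries. Cnp, an enzyme of myelin that other cells also make, differed least (-2.34 ± 0.18). Of 10 astrocyte genes 9 were lower, among them the glutamate transporter Slc1a2 at 1490 to 2662 CPM in brains and 0.114 to 0.620 CPM in ovaries. Aldh1l1, a folate enzyme used as an astrocyte marker, was higher in the ovary, at 43.8 to 129 CPM against 25.2 to 38.3 CPM. The 8 microglia genes had no common direction, with a median of -0.36 and a called share near the 57.3% of all genes tested. Of the 8, 4 were lower in the ovary, such as P2ry12 (-2.44 ± 0.13). Without the animal as a block, with upper quartile scaling or without animals 1 and 2, 3 were lower. Aif1, C1qa and C1qb, which macrophages share, were not called, and Siglech was higher in the ovary, at 0.2002 to 1.202 CPM against 0 to 0.1445 CPM.

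Transcription factors of brain development showed the lowest list median, -10.14, with all 12 lower in the ovary. Zic1, a cerebellar factor, had 2 counts in all ovaries and 124 to 290 CPM in brains. Choroid plexus genes, from a tissue inside the brain, were lower for 4 of 6: Ttr, the thyroid hormone carrier, ran from 163.5 to 1833 CPM across brains and did not pass 0.167 CPM in an ovary, whereas Folr1, a folate receptor in the same list, was higher in the ovary at 116 to 506 CPM (5.25 ± 0.28). Pituitary hormone genes were sparse, and 1 of 8, Pomc, could be tested. Prl, prolactin, was at 10.6 to 43.2 CPM in the brains of animals 18, 23, 25 and 28 and at 0 to 1.23 CPM in the other 10.

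Growth factors named for neurons were not confined to the brain. Of 11 neurotrophin and receptor genes 6 were lower in the ovary, 1 was higher and 4 were not called, a called share near the 57.3% of all genes tested. Bdnf (chr3:116619633-116670212), which supports neuron survival and synapses, was at 16.6 to 27.6 CPM in brains and 0.252 to 0.711 CPM in ovaries (-5.63 ± 0.16, adjusted p = 9.51e-16, edgeR), and its receptor Ntrk2 at 345 to 656 against 4.53 to 33.7 CPM. Gdnf was higher in the ovary of all 14 animals, at 4.08 to 10.1 CPM against 0.145 to 1.01 CPM (2.94 ± 0.19), while its receptors Ret (-4.70 ± 0.15) and Gfra1 (-3.04 ± 0.34) were lower. Ngfr, a receptor shared by neurotrophins, overlapped between organs and was not called (-0.02 ± 0.15).

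Among 19 glycolysis genes tested, 7 were lower in the ovary, 1 was higher and 11 were not called. The called share was below the 57.3% of all genes tested, and 30.3% of all were lower. In the aldolase family Aldoc, the brain form, was at 866 to 1389 CPM in brains and 5.91 to 72.6 CPM in ovaries, while Aldoa, for which the table gave 4.54 to 12.5 CPM in ovaries, was not called. The treatment of multi-mapping reads is not stated, so the level of Aldoa, and its contrast with Aldoc, is uncertain. Among enolases, the neuronal Eno2 differed by -5.78 ± 0.21 and the widespread Eno1 by -0.59 ± 0.09. Ldhb (-1.53 ± 0.08) was lower and Ldha (0.61 ± 0.10) not called. Hk2, an insulin-sensitive hexokinase, was the gene higher in the ovary (1.73 ± 0.20), with Hk1 not called (-0.78 ± 0.10). Of the phosphofructokinases, Pfkm was lower (-2.62 ± 0.09), and Pfkl (0.06 ± 0.09) and Pfkp (-0.24 ± 0.08) were not called. Gapdh, often used as a reference gene, was lower in the ovary of all 14 animals, with medians of 1150 and 2491 CPM. Its log2 difference of -1.04 ± 0.10 lost its call under upper quartile scaling and without the animal as a block.

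Of 15 clock genes tested, 8 were lower in the ovary and 0 higher, with a median log2 difference of -1.11. Over all genes tested 57.3% were called, near the share of this list, and 30.3% were lower. The activators Bmal1 (0.49 ± 0.08) and Clock (0.17 ± 0.08) and the repressors Per1, Per2 and Cry1 were not called. The output factors Hlf (-4.80 ± 0.16), Tef (-2.21 ± 0.12) and Dbp (-1.87 ± 0.16), which bind one DNA element, were lower, as were the repressors Cry2 (-1.98 ± 0.11) and Bhlhe41 (-3.62 ± 0.10). Nr1d1, whose gene overlaps Thra, was called at -1.11 ± 0.20 and lost that call without the block. Imprinted genes, expressed from 1 parental copy, also split: 3 of 12 were higher and 6 lower, against 27.0% and 30.3% of all genes tested. H19 was at 2.91 to 78.2 CPM in ovaries and 0.145 to 0.878 CPM in brains (4.80 ± 0.40), Meg3 (-7.06 ± 0.28) and Peg3 (-4.32 ± 0.07) were lower, and Igf2, the neighbour of H19, was at 23.4 to 61.4 CPM in ovaries and 92.7 to 358 CPM in brains (-2.43 ± 0.15).

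Most genes were found in both organs. With detection set at 1 CPM, here without TMM factors, in at least 12 of 14 libraries, 14898 genes were detected in the ovary and 15716 in the brain. Both organs shared 13329, which is 89.5% of the ovary's genes and 84.8% of the brain's. Of the shared genes 3231 were called higher in the ovary, 2644 lower and 7454 neither, and 2295 (17.2%) had a log2 difference within 0.25. The rule for named genes took the 8 of these with the highest level in the lower organ. One is a ribosomal RNA entry, LOC120102105, at 9005 to 21150 CPM in ovaries and 4138 to 674000 CPM in brains, where animal 1 is the highest. Others were Fth1 (iron storage), Atp5f1a and Atp5f1b (ATP synthase), Psap (a lysosomal protein precursor), Canx (a chaperone of the endoplasmic reticulum) and Pebp1 (a kinase inhibitor). Fth1 had medians of 2326 and 2167 CPM, and its log2 difference was 0.03 ± 0.10 (adjusted p = 0.782, edgeR). A p above the threshold does not show that levels are equal, and Canx had an adjusted p of 0.00191 at a log2 difference of 0.19 ± 0.05.

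Ovaries differed from one another more than brains did. Over the 8875 genes averaging 10 CPM or more in both organs, the median SD between animals on the log2 scale was 0.190 in ovaries and 0.160 in brains, and it was larger in the ovary for 65.5% of genes. Without animal 1, whose brain library was shallow, the medians were 0.193 and 0.143, and 73.1% of genes varied more in the ovary. These figures describe the libraries, and no test was made across genes.

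The pairs allow one more question, whether an animal with a high level of a gene in one organ also has it high in the other. Spearman's rho between brain and ovary over the 14 animals was computed for the 14175 genes whose mean level reached 1 CPM in each of the 2 organs, with 100000 permutations per gene. After adjustment 0 genes passed 0.05, by rho or by Pearson's r. With 100000 permutations the smallest possible permutation p is 1e-05, and over 14175 genes a gene alone at that floor cannot pass after adjustment. The 0 is therefore limited by the number of permutations and does not show that no gene is correlated. The smallest adjusted p was 0.142, and 911 genes (6.43%) had an unadjusted p under 0.05, of which 429 were positive. Values of rho ran from -0.934 to 0.895 around a median of -0.03. None of the 14 clock genes tested had an unadjusted p under 0.05, with rho from -0.398 to 0.446. Nr1d1, which cycles with time of day, had a rho of -0.305 over the 14 animals and of 0.063 without animals 1 and 2, so its sign rests on those animals.

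The rule named only the highest positive values of rho, although the value farthest from 0 was negative, at -0.934. The smallest adjusted p by rho, 0.142, belonged to none of the genes named here. The highest rho was that of Mettl27, a predicted methyltransferase, at 0.895 (permutation p = 5e-05, adjusted p = 0.354). Pearson's r was 0.889 (permutation p = 5e-05, adjusted p = 0.142) and stayed at 0.811 without animals 23 and 25, the pair farthest from the median. Its levels were alike in both organs, 5.23 to 14.8 CPM in ovaries and 5.63 to 12.9 CPM in brains. RT1-CE4, a class I gene of the rat major histocompatibility complex (MHC), had rho 0.864 and r 0.905 (permutation p = 0.00015 and 1e-05, the latter the smallest that 100000 permutations can give; adjusted p = 0.391 and 0.142). Without the 2 animals farthest from the median, r was 0.811. The other genes that the rule named were Polh, RT1-T24-3, Pcdhb20, Tmc5, Ucp2 and RT1-Db1, with rho between 0.837 and 0.881. All 8 were picked by rho in these data, so their r values, also without 2 animals, are no separate support.

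MHC molecules display peptides to T cells, and their genes are among the most polymorphic of outbred animals. In level, 12 of 13 tested genes of the MHC list were higher in the ovary and 0 lower, with a median log2 difference of 3.67: B2m, the shared light chain of class I, was at 1152 to 2436 CPM in ovaries and 244 to 508 CPM in brains. RT1-Db1, a class II chain, was at 65.0 to 185 CPM against 2.29 to 11.0 CPM. Across animals, 3 of 12 MHC list genes had an unadjusted p under 0.05 for rho, with a list median of 0.453. After these values were seen, the 29 genes with RT1 symbols among the 14175 tested were counted. Of them 14 had an unadjusted p under 0.05 for rho, 13 of them positive, around a median rho of 0.495, against 6.43% and -0.03 over all genes. They include the RT1 genes that led the ranking by rho, so this comparison is not independent of that ranking. RT1 genes are near-identical copies that share reads, so these 29 values are not independent of each other, and the level of any one of them is uncertain.

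**Figure D5:**
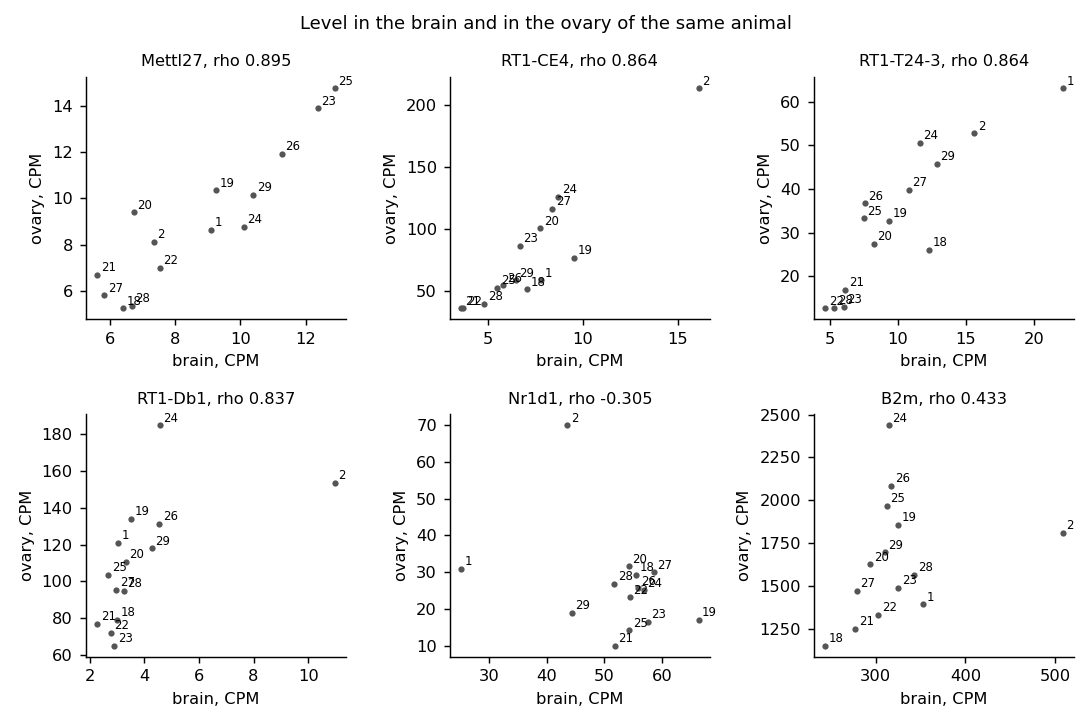
Level in the brain (horizontal, CPM) and in the ovary (vertical, CPM) of the same animal for 6 genes, each point labelled with its animal number, with Spearman's rho over 14 animals. Mettl27 and the 3 RT1 genes were picked for their high rho among 14175 genes, so their joint rise follows from that choice. None of them passed after adjustment. Nr1d1 (rho -0.305, or 0.063 without animals 1 and 2) and B2m (rho 0.433) were not picked by rho.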

How the data were processed

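Whole-brain and whole-ovary RNA of 14 female rats was sequenced. The deposited values are read counts per gene in 1 table per organ: per the submitters' processing notes, the authors trimmed reads with Trimmomatic 0.39, aligned them with STAR 2.7.5a to GRCr8 and counted them with Rsubread 2.20.0 in R 4.4.2. How multi-mapping reads were treated, and the annotation release, were not stated in the labels. The 15 male brain columns of the brain table were not used. Rn45s, Rn28s, Rn18s, LOC120093067 and LOC120099695, entries of ribosomal RNA, were left out of totals and tests.

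Of 38675 genes, 21029 passed edgeR's filter by organ. Counts were scaled with TMM factors and fitted with edgeR 4.0.16 (quasi-likelihood, R 4.3.3), with animal and organ as terms, and p-values were adjusted by Benjamini-Hochberg over all genes tested. Values after ± are approximate SE, the size of the log2 difference divided by the square root of the F statistic of its test. Columns share animal numbers between organs, and the series text states that brains and ovaries came from the same 14 females, which is the source of the pairing. Over all genes, deviations of the brain and ovary of one animal correlated at -0.1655 to 0.1275, above 0.1 in 1 animal. Over the 21 genes that varied widely in both organs they correlated at -0.1502 to 0.7406, above 0.1 in 11 of 14 animals, and the own ovary ranked first in 4. Gene lists were counted and not tested as sets. A gene with 0 counts in one organ got a bound from 3 counts over that organ's 14 libraries. Correlations were computed in Python 3.11.15 with NumPy 2.4.6 and SciPy 1.17.1. The edgeR and correlation steps were first tested on simulated data.

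Named genes were the 8 largest called differences in each direction, without overlap between organs and at 10 CPM or more, members of the lists for hormone, follicle, oocyte and growth factor genes, the largest changes of other lists, 8 alike genes and the 8 highest brain to ovary correlations. Other list members named in the text were chosen after their values were seen. The members, lists and rules were chosen with earlier results of these data known. Alternatives were other scaling factors, no filter, DESeq2 1.42.0, no block, and animals left out. Some genes that these rules name are not reported here.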

Additional observations from a re-analysis of the deposited data

How the results depend on the processing

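Without the replicate block, that is with the paired animals treated as unpaired, 12046 genes were called against 12045 with it, and 2272 against 2289 were at least 32-fold apart. Both fits shared 11895 calls, and 0 had opposite signs. That fit lost the calls of Pgr, Gapdh, Tmem119 and Nr1d1, gained that of Gja1, and reversed the direction of the uncalled ribosomal RNA entry LOC120102105, from 0.23 to -2.22 on the log2 scale. Leaving out 1 animal at a time gave 11618 to 11804 calls, and 2149 to 2211 genes at least 32-fold apart. RLE and upper quartile factors gave 12048 and 12077 calls, leaving out all 159 ribosomal RNA entries 12091, keeping the 5 left-out entries 11837, and leaving out animals 1 and 2 11969. Testing all 33785 genes with counts gave 16963 calls, and DESeq2 15894. Each of these totals was within 1.5 times 12045. No scaling moved the median of all genes by more than 0.1. Of the 469 listed or named genes, 467 were on the same side of the call limits with DESeq2, 466 with RLE factors, 465 with upper quartile factors and 463 without the block. Genes correlated between organs stayed at 0 with Pearson's r, with RLE factors, at 5 CPM or more, and without animal 1 or animals 1 and 2. Each of these counts is limited by the same floor of the permutation p. Genes detected in both organs numbered 10116 at 5 CPM and 12845 with ribosomal RNA kept in totals. Genes near 3 counts per organ are limited by depth, most of all in the brain of animal 1, with 10.9 M counts. Part of these counts were still ribosomal RNA.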

Other observations

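The following genes were chosen after their values were seen, and no test was made of them. Rln1, which encodes the hormone relaxin, was at 679, 848, 259 and 522 CPM in the ovaries of animals 21, 22, 23 and 25, the animals lowest in Cyp17a1 and Lhcgr. Its lowest ovary value was 6.78 CPM, in animal 18, and the ovary of animal 2 held 295 CPM. Scd, a fatty acid desaturase, ran from 63.2 to 7996 CPM, highest in animal 24, the ovary in which 7 of 8 fat cell genes were highest.

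The ovaries of animals 18 and 26 were low in genes of motile cilia. Besides Foxj1 and Sntn, both were lowest in Dynlrb2 (0.143 and 0.965 CPM against at least 4.90 CPM in the other 12) and Cdhr4 (0.143 and 0.510 against at least 4.91 CPM), genes of cilia and their motors. Among 15877 genes with an ovary mean of 1 CPM or more, 790 were lowest in this pair. The pair was chosen by its low Foxj1 and no other pair was counted, so this count has no reference. Ovary 18 also had the lowest median correlation with the other ovaries, 0.959. Gad1, a marker of GABA neurons, followed the same pattern, at 0.143 and 1.57 CPM in the pair and 3.91 to 20.4 CPM in the other ovaries. Aqp4, the water channel of astrocytes, was at 0.0204 and 0.218 CPM in the pair and 1.05 to 14.9 CPM elsewhere. Whether the ovarian reads of these brain genes come from the ovary or from neighbouring tissue was not tested.

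Brains differed in genes of tissue at their edge. Tph1, the serotonin enzyme of the pineal gland, was at 22.8, 733, 199 and 122 CPM in the brains of animals 1, 2, 19 and 25 and at 0.210 to 0.937 CPM in the other 10. Pde6g, a phototransduction gene that the pineal also expresses, was at 12.4, 441, 69.1 and 51.3 CPM in the same 4 brains and at 0.399 to 1.54 CPM in the others. Their part in the differences reported between brain and ovary was not tested.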
